A study of Rattus norvegicus with 4 samples.

Results

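Tulp1 (ENSRNOG00000000507), Gngt1 (ENSRNOG00000010546), Cacna1f (ENSRNOG00000010348), Cplx3 (ENSRNOG00000019317) and Pde6b (ENSRNOG00000000065) are genes best known from the light-sensing cells of the retina, and their UMIs (unique molecular identifiers, which count captured mRNA molecules) were described in rat trigeminal nerve. They are 5 of the 32623 genes in the count matrix. They were taken by symbol because their counts had been seen to differ between the capture areas of the series, so their levels in the 4 areas chose them, and those levels are given below as a description without a test.

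A photoreceptor turns light into a nerve signal with a cascade in its outer segment, in which a light receptor activates the G protein transducin and transducin activates a phosphodiesterase that breaks down cyclic GMP. At the other end of the cell a ribbon synapse, fed by calcium channels and clamped by complexins, releases glutamate without pause in the dark. Pinealocytes, the melatonin cells of the pineal gland, share much of this gene set, and its transcription in both is driven by the homeobox factors Crx and Otx2, which bind a TAATC core. None of the genes belongs to the known identity of trigeminal sensory neurons or Schwann cells.

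Visium spatial arrays were used on frozen sections of trigeminal root, ganglion and proximal branches of wild type adult male Sprague-Dawley rats, with 1 slide of 4 capture areas. TN1, TN2 and TN3 held the diseased side of 3 animals whose trigeminal root had been compressed mechanically on 1 side, a model of trigeminal neuralgia with 1 animal per area. HC (healthy control) held tissue of 2 animals on 1 area and is 1 sample, since its spots carry no animal label. The methods describe the controls as sham-operated, whereas the series description takes them from the uncompressed side of 2 of the 3 TN animals, so HC may not be independent of TN. A spot collects RNA from a patch of tissue that can hold several cells, so a lower level cannot tell fewer cells of a type from less RNA per cell. Because HC was a single area, condition and capture area cannot be told apart for any difference below.

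The areas held 23546025 (TN1), 38769935 (TN2), 32239597 (TN3) and 41335930 (HC) UMIs over 1587, 1256, 1917 and 2013 spots, with medians of 9487 to 30808 UMIs per spot. Spots were grouped into regions by clustering without the 5 genes and were named from marker lists: sensory neuron, central and peripheral myelin, central neuron, astrocyte, connective tissue, and blood and bone, the last led by S100a8, S100a9 and hemoglobin genes. One cluster lay too close to both sensory neuron and peripheral myelin and is called unnamed. The areas did not hold the same tissue: connective tissue and astrocyte regions had no spot in HC, and the central neuron region had none in TN3 or HC. The blood and bone markers moved with HC, with a summed level of 865 CPM (UMIs of a gene per 1000000 UMIs of the same spots) there against 207 to 694 in the TN areas. Of its 9 genes, 7 were higher in HC than in every TN area. So did the sensory neuron markers, at 10998 CPM in HC against 4419 to 7071, with 11 of 14 genes higher in HC than in every TN area. The sensory neuron region held 678 spots in HC and 165 to 366 in a TN area.

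Stretches of the 5 promoters are shown first, because the Crx and Otx2 core is the feature of sequence that retinal and pineal genes are known to share. They come from RefSeq on build GRCr8, read along the strand of the gene, with every core in the stretch (TAATC, or GATTA where it lies on the other strand) in capitals and 28 bases on each side of the one the stretch was cut around. The build behind the counts is not given in the sources used here, so these coordinates belong to the RefSeq table alone.
Gngt1, chr4:32960698-32960758, plus strand: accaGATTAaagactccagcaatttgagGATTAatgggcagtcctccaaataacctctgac
Pde6b, chr14:1511470-1511530, minus strand: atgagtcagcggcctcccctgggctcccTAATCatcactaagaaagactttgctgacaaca
Tulp1, chr20:6425790-6425850, minus strand: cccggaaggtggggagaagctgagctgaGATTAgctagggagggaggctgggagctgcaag
Cacna1f, chrX:17568312-17568372, minus strand: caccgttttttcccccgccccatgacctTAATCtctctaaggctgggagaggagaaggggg
Cplx3, chr8:66906248-66906308, minus strand: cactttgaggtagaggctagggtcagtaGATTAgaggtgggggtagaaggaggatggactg

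The core lay in the window from 250 bases before to 50 after the transcription start of 5 of the 5 genes, and in 22.9% of all 33469 promoter windows on either strand. Gngt1 held 4 matches and each of the others held 1. Counting the start base as 0, the first letter of the central match stood at -219 in the Gngt1 stretch, which holds a further match upstream, -67 in Pde6b, 11 in Tulp1, -36 in Cacna1f and -80 in Cplx3. The longer form TAATCC occurred in Gngt1 only among the 5 and in 7.17% of all promoters. Pde6b carried the core too, although its counts ran the other way from those of the other 4. These are matches of letters and not observed binding.

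Counts in the 4 areas fell into 2 patterns, which follow from how the genes were chosen. Tulp1, Gngt1, Cacna1f and Cplx3 were counted almost entirely in HC, whereas Pde6b was counted mainly in TN. Against this choice, all 3 TN areas stood at least 2-fold below HC for 1.21% of the 14902 genes that passed the filter on low counts, and at least 2-fold above it for 4.58%. The 5 genes all passed that filter, and the 4 with few TN counts did so through HC.

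Gngt1, the gamma subunit of rod transducin, had 1, 0 and 1 UMIs in TN1, TN2 and TN3 and 86 in HC. In CPM this is 0.0425, 0 and 0.0310 against 2.08 in HC, with an exact Poisson 95% interval for HC of 1.66 to 2.57. Intervals of this kind here cover counting error only. HC stood apart from all 3 TN areas, and its ratio to the pooled TN areas was 98.4, with a counting interval of 26.4 to 825 that is wide because TN gave only 2 UMIs.

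Tulp1, a tubby-like protein needed for protein traffic to the outer segment, had 1, 6 and 6 UMIs in the TN areas and 170 in HC. Its level was 0.0425, 0.155 and 0.186 CPM in TN and 4.11 (3.52 to 4.78) in HC. It was the most counted of the 4 genes in HC, and the ratio of HC to pooled TN was 29.9 (17.0 to 57.3).

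Cacna1f, which encodes the pore of the Cav1.4 calcium channel of the ribbon synapse, had 2, 9 and 4 UMIs in TN and 106 in HC. Its level was 0.0849, 0.232 and 0.124 CPM in TN and 2.56 (2.10 to 3.10) in HC, a ratio of 16.2 (9.37 to 29.9). Cplx3, a complexin of ribbon synapses, had 0, 1 and 1 UMIs in TN and 63 in HC. Its level was 0, 0.0258 and 0.0310 CPM in TN and 1.52 (1.17 to 1.95) in HC, a ratio of 72.1 (19.1 to 608). For both synaptic genes no TN area came near HC.

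Pde6b, the beta catalytic subunit of the rod phosphodiesterase, had 139, 234 and 156 UMIs in TN1, TN2 and TN3 and 23 in HC. The TN areas lay close together at 5.90, 6.04 and 4.84 CPM (5.59 ± 0.656, SD, n = 3), and HC was at 0.556 (0.353 to 0.835). TN was 10.1-fold higher (6.63 to 16), and every TN area lay above HC. Pde6b is thus the 1 gene of the 5 that was readily counted in compressed nerve.

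**Figure D1:**
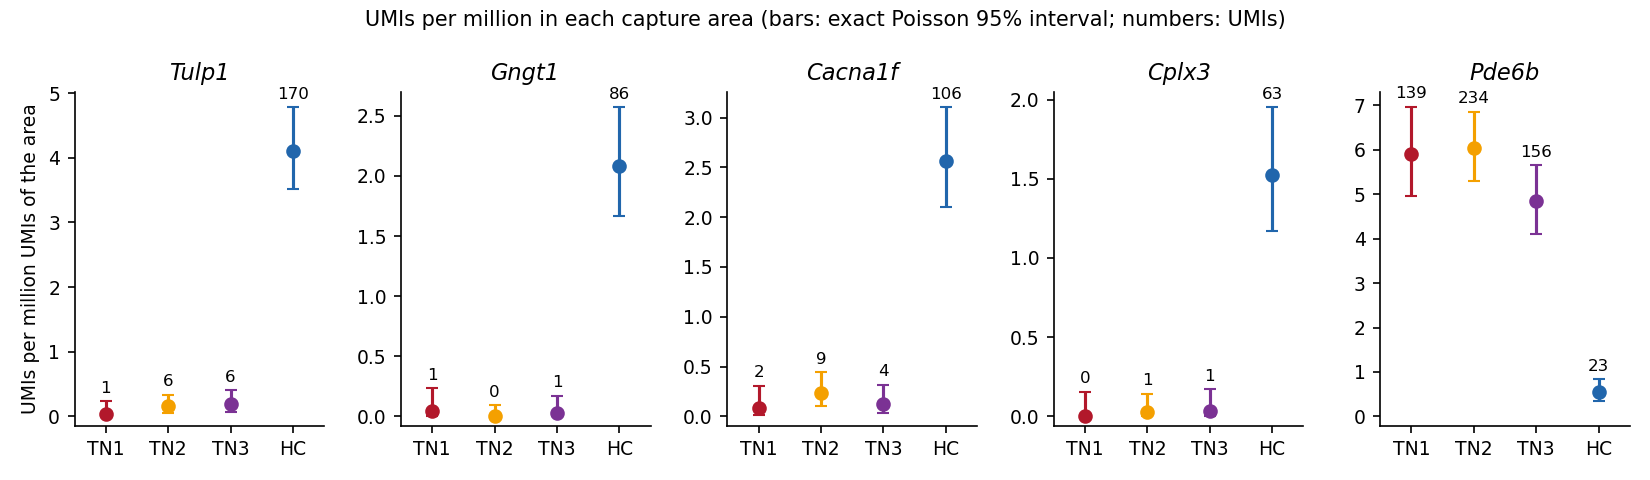
Level of each gene in each capture area, in CPM on the vertical axis (a separate linear scale per gene). Points are single areas, bars are exact Poisson 95% intervals and the numbers are UMIs. Tulp1, Gngt1, Cacna1f and Cplx3 reach 63 to 170 UMIs in HC and at most 9 in a TN area, and Pde6b has 139 to 234 UMIs in TN and 23 in HC.

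The UMIs were spread thinly over many spots. In HC the 170 Tulp1 UMIs came from 145 spots, of which 125 held a single UMI and the richest held 4. Gngt1 was found in 80 HC spots, Cacna1f in 94 and Cplx3 in 57, with at most 5 UMIs in a spot. For Pde6b the richest spot of TN1, TN2 and TN3 held 7, 6 and 4 UMIs. The richest 1% of spots held 41.0%, 17.5% and 28.2% of the Pde6b UMIs in these areas, and 26.5% (Tulp1) to 41.3% (Cplx3) of those of the other 4 genes in HC. Such a share depends on how many UMIs there are, so the genes are not ranked by it.

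Since areas differed in depth, shares of spots with a UMI were also computed for spots thinned to 5000 UMIs, leaving out 167 shallower spots in HC and 68 to 355 in the TN areas. Tulp1 was seen in 7.20% of HC spots before and 2.61% after thinning, and in at most 0.125% of thinned spots in a TN area. Thinned HC shares were 1.55% for Gngt1, 1.48% for Cacna1f and 1.02% for Cplx3. Pde6b was seen in 1.42% (TN1), 2.31% (TN2) and 2.04% (TN3) of thinned spots and in 0.181% in HC. For each gene HC lay on the same side of the TN areas on this scale as in CPM, the side that the choice of genes had set.

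Spot barcodes repeat between areas, so the few TN counts of the 4 genes were set against HC. Of 3573 distinct barcodes, 52 lay under tissue in all 4 areas. Of the 13 TN spots with a Tulp1 UMI, 9 had a barcode also used under HC tissue and 1 of these held Tulp1 in HC. For Cacna1f these numbers were 6 of 14 and 0, for Gngt1 2 of 2 and 0, and for Cplx3 1 of 2 and 0. Among the TN spots whose barcode also lay under HC tissue, 1 spot thus held the same gene in HC. The other TN spots could not be compared, and carry-over of UMIs between areas was not tested.

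Tissue within HC was not used to choose the genes. Tulp1 had 81 of its 170 HC UMIs in the sensory neuron region, 61 in blood and bone, 22 in the unnamed region and 5 in central myelin. It stood, in CPM, at 15.1 (11.6 to 19.5) in blood and bone, 3.08 (2.44 to 3.83) in sensory neuron, 3.91 (2.45 to 5.92) in unnamed and 0.971 (0.315 to 2.27) in central myelin. Blood and bone was 4.92-fold (3.47 to 6.95) above sensory neuron for Tulp1, and it was above sensory neuron for the other 3 genes too. The order of the lower regions differed. For Cplx3, central myelin was at 1.36 CPM (0.546 to 2.80) and sensory neuron at 0.836 (0.524 to 1.27).

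Cacna1f had 53 UMIs in sensory neuron, 36 in blood and bone, 13 in unnamed and 3 in central myelin. Its level in blood and bone was 8.94 CPM, 4.44-fold (2.82 to 6.91) above sensory neuron. Gngt1 had 39, 28, 12 and 6 UMIs in the same order, and its blood and bone level of 6.95 CPM was 4.69-fold (2.78 to 7.82) above sensory neuron. Cplx3 had 22, 23, 11 and 7 UMIs and was 6.83-fold (3.64 to 12.9) higher, at 5.71 CPM. The gain over sensory neuron spots was thus of similar size for the 4 genes, with overlapping intervals.

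This gain depended on the scale. Blood and bone spots were shallow, with a median of 6897 UMIs against 35818 in sensory neuron spots, and per 100 spots the regions were close. Tulp1 gave 11.8 (8.99 to 15.1) UMIs per 100 spots in blood and bone and 11.9 (9.49 to 14.8) in sensory neuron, Cacna1f 6.94 and 7.82, Gngt1 5.39 and 5.75 and Cplx3 4.43 and 3.24. Central myelin, with a median of 11342 UMIs per spot, was low on both scales for Tulp1, at 1.15 (0.374 to 2.69) per 100 spots. The sensory neuron and blood and bone spots therefore held about the same number of these UMIs each, on very different totals.

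**Figure D2:**
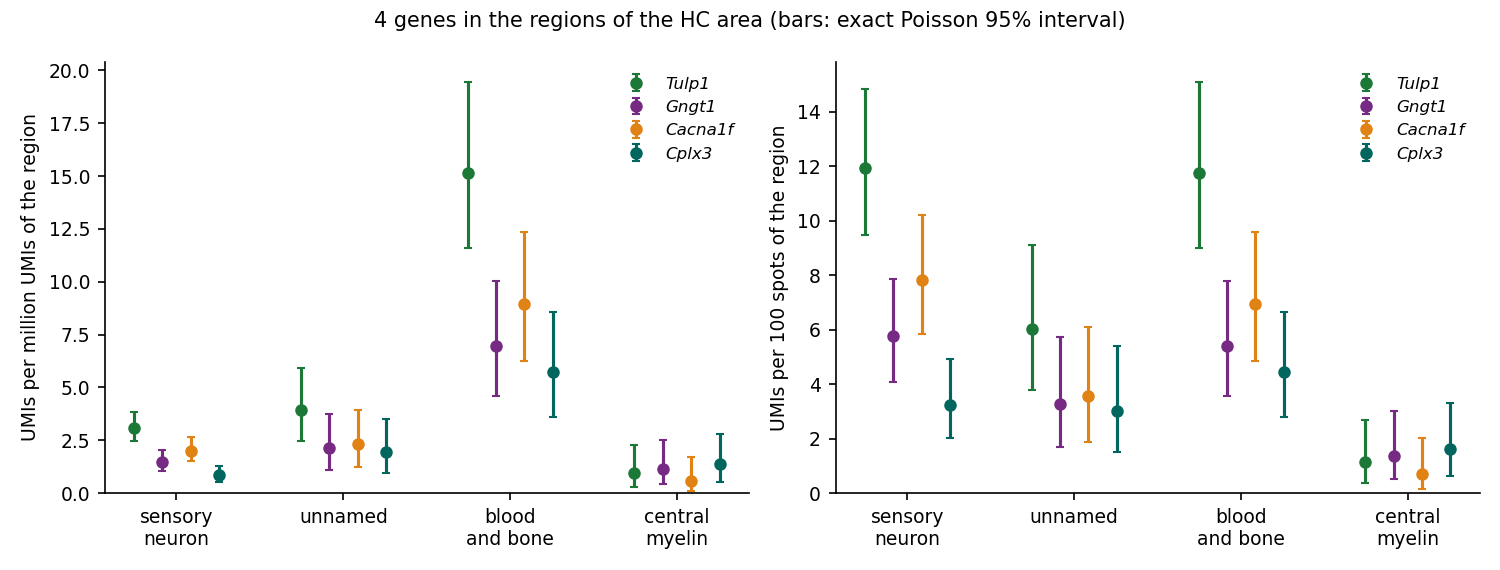
Tulp1, Gngt1, Cacna1f and Cplx3 in 4 regions of the HC area, in CPM on the left and per 100 spots on the right, with exact Poisson 95% intervals. On the left all 4 genes are highest in blood and bone, led by Tulp1 at 15.1, and on the right blood and bone and sensory neuron lie together, with Tulp1 at 11.8 and 11.9.

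The 4 genes kept similar proportions in the larger regions. Of their 195 UMIs in sensory neuron spots, 41.5% were Tulp1, 27.2% Cacna1f, 20% Gngt1 and 11.3% Cplx3. Of the 148 in blood and bone, the shares were 41.2%, 24.3%, 18.9% and 15.5%. In the unnamed region, with 58 UMIs, they were 37.9%, 22.4%, 20.7% and 19.0%. Only central myelin, with 21 UMIs, departed in order, with Cplx3 first at 33.3%, on counts too few to rank.

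Whether the genes shared spots was counted next. Of the 2013 HC spots, 1673 held none of the 4 genes, 309 held 1, 27 held 2, 3 held 3 and 1 held all 4. Tulp1 was present in 10.6% of the 218 spots with a UMI of another of the 4 and in 6.80% of the 1795 without one, but the first set was deeper, with a median of 18624 UMIs against 14465. Within the sensory neuron region, where depth was nearer (34950 and 35917), Tulp1 was in 9.68% of spots with another of the 4 and in 10.1% of those without. In that region Cacna1f was in 7.08% and 6.90%, Gngt1 in 5.60% and 4.88% and Cplx3 in 3.65% and 2.77%. For these 3 the spots with another were deeper, at medians of 38359 to 39842 UMIs against 35113 to 35337. Taken pair by pair there, each gene was in a larger share of spots with the other than without, on 2 to 6 shared spots. Tulp1 was in 14.7% of spots with Gngt1 and 9.78% of those without, and Cplx3 in 8.82% and 2.64%. A spot with 3 or 4 of the genes counts in several pairs. Within blood and bone the shares were 13.9% and 9.17% for Tulp1, 9.78% and 4.92% for Cacna1f, 5.49% and 5.14% for Gngt1 and 4.08% and 3.56% for Cplx3, on 4 to 10 shared spots. The genes lay in the same regions, and spots with several of them were few.

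Sensory neuron spots with and without Tulp1 looked alike in neuronal markers. The summed sensory neuron list had a median of 13591 CPM in the 68 HC spots with Tulp1 and 13149 in the 610 without, and the nerve injury list 625 and 555. The blood and bone list stood at 453 and 398 CPM. For Gngt1 the blood and bone list was at 601 in the 34 spots with a UMI and 396 in the rest, for Cplx3 at 661 and 396, and for Cacna1f at 370 and 402. Within the HC blood and bone region Gngt1 ran the other way, at 2339 CPM in the 27 spots with a UMI and 3054 in the rest. There the list was higher in spots with Tulp1 (3355 and 2997), Cplx3 (3756 and 2997) and Cacna1f (3275 and 3013). The part of blood and bone content in these counts was not tested. S100a8, a granulocyte gene and defining marker of that region, was itself at 34.3 CPM in HC sensory neuron spots against 3.18 to 3.63 in the TN areas.

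TN blood and bone spots gave few UMIs of the 4 genes. Over 348 such spots, Tulp1, Gngt1 and Cacna1f had 1 UMI each, 0.505 CPM (0.0128 to 2.81), and Cplx3 had 0, with an exact Poisson upper bound of 1.86 CPM. These spots were shallow, with medians of 3731 to 5234 UMIs. In HC blood and bone the 4 genes stood at 5.71 to 15.1 CPM, above the upper bound in TN. The direction of this contrast follows from how the genes were chosen. S100a8 also differed there, at 517 CPM in HC and 29.8 to 139 in the TN areas.

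In the sensory neuron region alone the contrast between areas had the same direction for each gene, which follows from how the genes were chosen. Tulp1 was at 3.08 CPM in HC and had 6 UMIs over the 3 TN areas, 0.187 CPM (0.0688 to 0.408). Gngt1 was at 1.48 against 0.0312 CPM, Cacna1f at 2.01 against 0.156 CPM, and Cplx3 at 0.836 CPM against 0 UMIs in TN, with an exact Poisson upper bound of 0.115 CPM. In this region all 3 TN areas lay at least 2-fold below HC for 0.600% of the 12838 genes tested and at least 2-fold above for 2.87%.

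Pde6b had its highest levels in the sensory neuron region. In TN1 it stood at 12.1 CPM (9.97 to 14.5) there, in TN2 at 11.1 (9.50 to 12.9) and in TN3 at 10.2 (7.92 to 12.8), so the TN areas overlapped. HC was at 0.836 CPM (0.524 to 1.27), with 22 of its 23 UMIs in this region. Lower in TN came the unnamed region, at 4.29 to 7.58 CPM, and the connective tissue region, at 3.09 (TN2) and 3.16 (TN3) CPM.

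The remaining regions were lower. The astrocyte region gave 7 UMIs in TN3, at 2.88 CPM (1.16 to 5.94), and 0 in TN2. Peripheral myelin was at 1.43 CPM in TN1 and 1.42 in TN3, central myelin at 0 to 1.72 and central neuron at 1.41 (TN1) and 0.969 (TN2). Blood and bone in TN gave 2 UMIs in all. Among regions of 20 or more spots, sensory neuron thus had the highest value in each of the 4 areas. Its interval overlapped that of the unnamed region in TN2, in TN3 (5.19 to 10.7) and in HC, and on very few counts that of blood and bone in TN2 and HC and of central myelin in HC. In edgeR with capture area as a block, Pde6b was 2.17 (SE 0.25, log2) higher in that region than in the other spots of the same area, in 4 of 4 areas. No p is given, since regions were drawn from the same spots. Of the 12520 genes in that fit, 26.3% were called higher in the region and 23.8% lower, so its direction is a common one. Tulp1, Gngt1, Cacna1f and Cplx3 did not pass the filter of this fit.

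**Figure D3:**
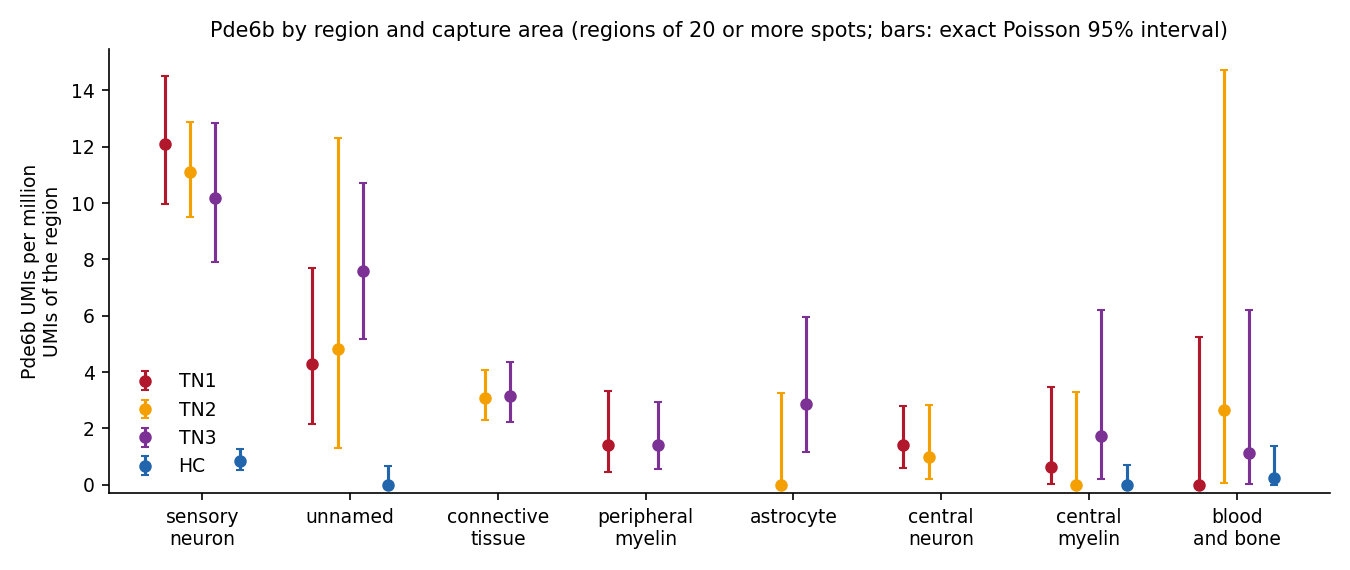
Pde6b in CPM in each region with 20 or more spots in an area, by region and capture area, with exact Poisson 95% intervals. The sensory neuron region has the highest value in each area, with intervals that overlap the unnamed region in TN2, TN3 and HC, at 10.2 to 12.1 in TN and 0.836 in HC.

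Sensory neuron spots came from 2 clusters, and Pde6b differed between them. One, led by Nefl, Tac1 and Nefh, held 678 HC spots and 40 to 148 spots of each TN area. In it Pde6b was at 6.12 (4.41 to 8.27), 5.83 (3.19 to 9.79) and 9.27 (6.65 to 12.6) CPM in TN1, TN2 and TN3 and 0.836 in HC. TN thus lay above HC in this cluster too, the direction in which Pde6b was chosen. The other cluster, led by the nerve injury and neuropeptide genes Csrp3, Gal, Reg3b and Vip, had no HC spot. Pde6b there was at 28 (21.9 to 35.3), 12 (10.2 to 14.1) and 11.8 (7.88 to 16.9) CPM.

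Like Pde6b, 9 of the 12 genes of the nerve injury list stood at least 2-fold higher in every TN area than in HC, against the 4.58% of all tested genes above. The exceptions were Nts, Jun and Gap43, the last at 370 CPM in TN3 and 371 in HC. The list was drawn up with earlier results of these data known, so the count of 9 is a description. In the second of these clusters the TN areas did not order alike for Pde6b and for Atf3. Atf3, a transcription factor induced in injured neurons, was at 88.0, 155 and 95.4 CPM in the first cluster of TN1, TN2 and TN3 and at 5.17 in HC, and at 291, 368 and 298 CPM in the second. Atf3 was thus highest in TN2 in the first cluster, where the Pde6b intervals of the 3 TN areas overlapped and give no order. In the second cluster Atf3 was again highest in TN2, at 357 to 378, whereas Pde6b was highest in TN1. Atf3 in TN1 (270 to 312) overlapped TN3 (277 to 320) there. In TN1 sensory neuron spots, the nerve injury list had a median of 2184 CPM in the 63 spots with Pde6b and 967 in the 139 without. The medians were 3533 and 2493 in TN2 and 1496 and 1373 in TN3. Spots with Pde6b were also deeper in each, at 55547 against 45826 UMIs in TN1, and the part of depth was not tested. The peptidergic nociceptor list ran the other way, at 1350 and 1776 CPM in TN1, 1085 and 1621 in TN2 and 1181 and 2208 in TN3. In all 3 TN areas, then, spots with Pde6b had the higher median of the injury list and the lower median of the peptidergic list. HC sensory neuron spots split the same way, at 587 and 563 CPM for the injury list and 1865 and 2462 for the peptidergic list. The sensory neuron and nonpeptidergic lists were also lower in spots with Pde6b in all 3 TN areas, at 10849 and 11694 CPM and 598 and 646 in TN1. The myelinated list was lower in TN1 and higher in TN2 and TN3.

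**Figure D4:**
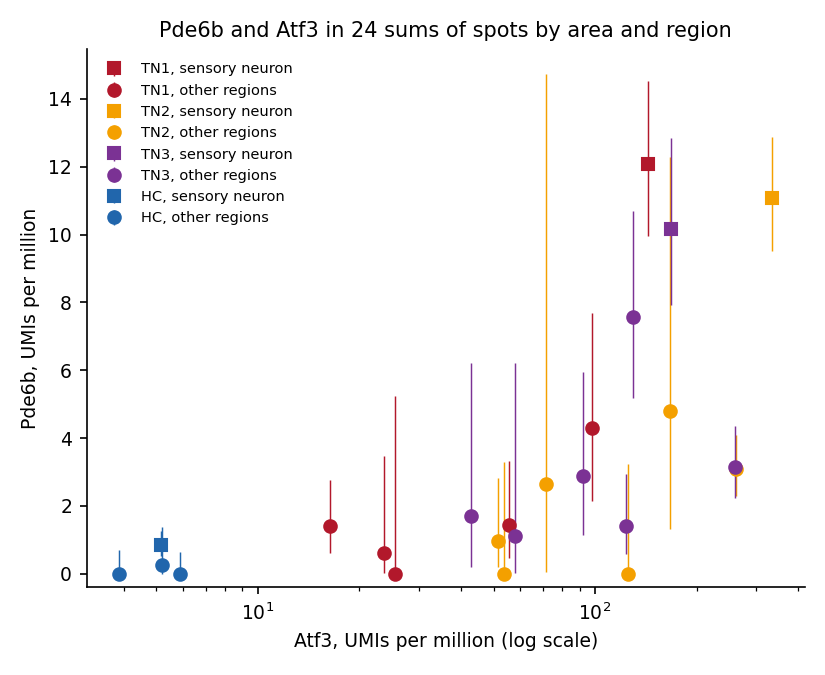
Pde6b against Atf3, both in CPM (Atf3 on a log scale), in 24 sums of spots by capture area and region. Squares are sensory neuron sums, circles other regions, and bars exact Poisson 95% intervals of Pde6b. The 4 HC sums have the least Atf3 (3.88 to 5.87) and at most 0.836 CPM of Pde6b, the 3 TN sensory neuron sums are highest for Pde6b, and the connective tissue sums have much Atf3 (260 and 262) but Pde6b near 3.

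Likeness of pattern was measured as Pearson's r of log2(CPM + 1) over the same 24 sums, which come from only 4 libraries, among genes with 100 or more UMIs. The genes most like Pde6b were Vip (0.85), Tmsb15b2 (0.84), Ucn (0.83), Reg3b (0.83) and Hdac2 (0.83), of which Vip and Ucn encode neuropeptides. Those most like Tulp1 were Cacna1f (0.97), Prg2 (0.86), Tph1 (0.86), Neurod4 (0.84) and Camp (0.82). Prg2 and Camp are granule proteins of eosinophils and neutrophils, Tph1 makes serotonin in the pineal gland and in mast cells, and Neurod4 is a neurogenic transcription factor. Gngt1 led with Tulp1 (0.97), Cacna1f (0.96), Camp, Prg2 and Tph1, Cacna1f with Tulp1, Tph1 (0.85), Neurod4, Camp and Prg2, and Cplx3 with Tulp1 (0.90), Cacna1f (0.86), Gnb3, Neurod4 and Tph1. Pde6b had negative values with the other 4, from -0.50 (Cplx3) to -0.34 (Cacna1f). The genes were chosen because they differ between HC and TN, so the negative values with Pde6b, and part of the high values among the other 4, follow from that choice.

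The close relatives of the 5 genes ran in both directions. Among tubby genes, Tub had 3, 3, 0 and 2 UMIs in TN1, TN2, TN3 and HC, Tulp2 had 2, 9, 5 and 9 and Tulp3 had 11, 3, 6 and 9. Tulp4 had 11, 16, 13 and 35 UMIs and, like Tulp1, was higher in HC than in every TN area, with a ratio of HC to pooled TN of 2.00 (1.23 to 3.23). Gngt2, the cone counterpart of Gngt1, had 202, 944, 960 and 233 UMIs, at 8.58 to 29.8 CPM in TN and 5.64 in HC, so it lay on the other side of HC from Gngt1. Cplx1, the main neuronal complexin, was at 1214 CPM in HC and 417 to 876 in TN, and so ran in the direction of Cplx3 with a smaller ratio of 2.03. Cplx2 lay within the TN range, at 3.77 CPM in HC and 1.64 to 4.42 in TN, and Cplx4 had 0, 1, 1 and 3 UMIs. Cacna1d, the L-type relative of Cacna1f, had 52, 35, 53 and 79 UMIs. Of the partners of Pde6b in the rod enzyme, Pde6a had 0, 7, 2 and 0 UMIs and Pde6g had 0 in TN and 3 in HC, and the cone subunit Pde6c had 0 in TN and 14 in HC, at least 10.7-fold higher against a floor of 3 UMIs over the TN group. None of the 3 was counted at the TN level of Pde6b in any area.

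Genes next to the 5 on the chromosome had other patterns where they were well counted. Around Tulp1, Tead3 was at 3.82 to 13.4 CPM in TN and 4.79 in HC, and Fkbp5 at 14.0 to 43.9 and 19.1. Around Gngt1, Tfpi2 was at 0.680 to 1.93 CPM in TN and 0.387 in HC, and Gng11 at 2.55 to 8.0 and 1.86, both lower in HC where Gngt1 was higher. Around Cacna1f, Syp was at 1.49 to 6.46 CPM in TN and 2.52 in HC, and Ccdc22 at 18.1 to 27.5 and 23.6. Atp5me, beside Pde6b, was at 644 to 874 CPM in TN and 1009 in HC. Ulk3 and Lman1l, beside Cplx3, had at most 14 UMIs in an area.

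A panel of 87 other retina and pineal genes, of which 85 were found by symbol, placed the 5 among their kind. At the level of the area, with a floor of 3 UMIs over the TN group, or in HC, in place of lower counts, 17 of the 85 (20%) stood at least 2-fold higher in HC than in every TN area, against 0.892% of all 32623 genes, and 7 of the 17 had no UMI in TN. None stood at least 2-fold lower in HC, against 1.98% of all genes, and 9 of the 85 had no UMI anywhere. Over the floor in HC were 58 of the 85 and 15448 of all 32623 genes, so the 20% and 0.892% rest on unlike sets. Of the 50 that passed the filter, 12 lay at least 2-fold below HC in all 3 TN areas, 24% against the 1.21% of all tested genes above, and 0 at least 2-fold above, against 4.58%. In a panel of this size, both counts of 0 are close to the shares of all genes. The median log2 difference of TN against HC over the 50 was -0.53, against 0.06 over all genes. Low genes could pass that filter through HC, and the panel was drawn up with results of these data known.

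Genes of the cone and rod cascade were part of this. Gnat2, the alpha subunit of cone transducin, had 1, 18, 21 and 199 UMIs in TN1, TN2, TN3 and HC, and Gnb3, its beta subunit, had 8, 22, 52 and 220. Like the 4 genes, Gnat2 was in CPM highest in HC blood and bone, at 17.6 (13.8 to 22.2), against 3.76 (3.06 to 4.58) in sensory neuron. This scale raises shallow spots, as for the 4 genes above. By spots, Gnat2 was found in 48 of 519 in blood and bone and 77 of 678 in sensory neuron. Aipl1, a chaperone of the photoreceptor phosphodiesterase, had 25 UMIs in HC and 0 in TN, at least 19.1-fold higher against the same floor, and Pdc (phosducin) had 18 and 0, at least 13.7-fold. Tph1 had 38, 25, 14 and 641 UMIs and stood at 59.3 CPM (52.1 to 67.4) in HC blood and bone. It was found in 146 of the 519 spots there and in 166 of the 678 HC sensory neuron spots. Asmt, the last enzyme of melatonin synthesis, had 9, 8, 7 and 52 UMIs. In HC sensory neuron spots Tulp1 was in 22.1% of spots with Gnat2 and in 8.49% of those without. Gngt1 was in 13.8% of spots with Gnb3 and in 3.72% of those without. Of the pairs of the 4 genes with Gnat2, Gnb3 and Tph1 there, only Cacna1f with Tph1 was lower, at 6.63% and 7.03%. In blood and bone such pairs ran both ways, with Tulp1 at 27.1% and 8.07% for Gnat2 and Gngt1 at 0% and 5.73%. The part of depth was not tested.

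Several genes that define photoreceptors were not at least 2-fold higher in HC than in every TN area, though Sag was. Crx, Otx2, Nr2e3 and Rp1 had 0 UMIs in all 4 areas and Nrl had 1, in TN3. Gnat1, the alpha subunit of rod transducin, had 9, 17, 11 and 11, at 0.266 CPM in HC and 0.341 to 0.438 in TN. Sag (arrestin) had 1, 1, 3 and 15 UMIs and was at least 2-fold higher in HC than in every TN area. Aanat, the enzyme that times melatonin synthesis, had 15, 43, 17 and 54, at 1.31 CPM in HC and 0.527 to 1.11 in TN. Gngt1, the gamma subunit of the same rod transducin, was thus counted mainly in HC while Gnat1 was not. The Gnat1 level was lower in HC than in each TN area, but on few counts. Its ratio of HC to pooled TN was 0.680, with a counting interval of 0.313 to 1.36 that holds equality.

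**Figure D5:**
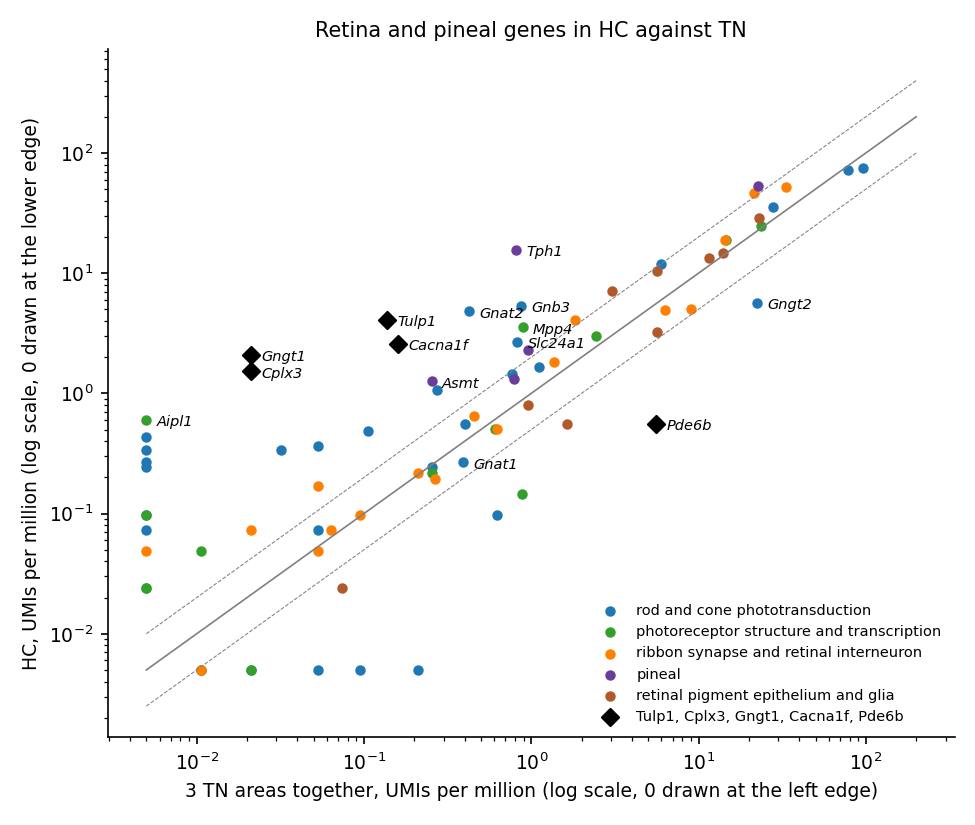
Retina and pineal genes in HC (vertical axis) against the 3 TN areas pooled (horizontal axis), in CPM on log scales, with 0 drawn at the edge. The solid line is equality and the dashed lines are 2-fold. Tulp1, Gngt1, Cacna1f and Cplx3 lie far above the upper line with Tph1, Gnat2 and Gnb3, and Pde6b lies below the lower line.

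With HC as a single area, no gene of the 14902 passed edgeR's quasi-likelihood test at a Benjamini-Hochberg adjusted p of 0.05 (0% called; before adjustment 1271 had p under 0.05). DESeq2 called 28 lower and 116 higher in TN, with Tph1 the only retina or pineal gene of the panel among them, at log2 -4.23 and an adjusted p of 3.63e-05. Without TN1, edgeR called 985 genes lower and 1186 higher, of which 13 and 1 were of the panel. In the sensory neuron region edgeR likewise called 0% of 12838 genes (1171 before adjustment) and DESeq2 22 lower and 96 higher. There 4 of the 39 tested panel genes, Tph1, Gnat2, Rpe65 and Asmt, lay at least 2-fold below HC in all TN areas, and Lrat at least 2-fold above. In the fit of the region against other spots, 9 of 33 tested panel genes were called higher and 4 lower, against 26.3% and 23.8% of all genes in that fit, so the first count is close to the background.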

How the data were processed

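The authors ran Space Ranger, which counts UMIs by gene and spot, and deposited the raw counts of spots under tissue as whole numbers in a single matrix, where a suffix on the barcode names the area. The submitters' processing notes name Space Ranger (version 1.2.0) and STAR. Genome build, annotation release, strand setting and any equalising of depth between areas: not given in the sources used here.

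From these counts, sums per area and region were formed and divided by all UMIs of the same spots (CPM). Regions came from SCTransform (sctransform 0.4.2, Seurat 5.3.0, R 4.3.3) of genes seen in 10 or more spots, 3000 variable genes without the members and the retina and pineal lists, 30 principal components and K-means with 10 clusters and 50 starts. A cluster took the marker list with the highest mean of centred log2(CPM + 5), and none where the first 2 lists lay within 0.25. The study tested spots, which are not replicates, so area sums went into edgeR 4.0.16 (filterByExpr, TMM, quasi-likelihood test, Benjamini-Hochberg over all genes at 0.05). The spread came from the TN areas, with 2 residual degrees of freedom, and HC was assumed to vary like them. DESeq2 1.42.0 was an alternative. The edgeR fits were tested on simulated data with 200 changed genes.

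Members, gene lists and tests were chosen with earlier results of these data known. Genes named were the 5 members, list genes that passed a test or define photoreceptors, the 5 genes most alike each member and the neighbours of each, and 1 list gene is not reported here. Prph2, Prcd and Cntnap2 were not found by symbol. Promoters and neighbours were matched by symbol for 5 of 5 members. Folds against TN areas at 0 UMIs used a floor of 3 UMIs over the group. All intervals are 95% intervals. Cacna1f overlaps an annotated long non-coding RNA, so its reads may be shared.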

Additional observations from a re-analysis of the deposited data

How the results depend on the processing

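The alternatives were other size factors, no filter, DESeq2, a minimum per spot of 500 genes and 1000 UMIs, 8 or 12 clusters, a region set by marker level alone, and each TN area left out. They rescale or subset the counts that chose the 5 members, so the members' direction in TN against HC was fixed in advance and is no sign of stability. HC could be left out only of the fit of the region against other spots, which held Pde6b alone of the 5. For TN against HC over all spots, 0 genes passed in edgeR and 144 in DESeq2, and leaving out each TN area gave 0 to 2171, the latter without TN1. In the sensory neuron region 0 passed in edgeR, 118 in DESeq2, 21 without a filter on low counts, and 0 to 788 with each TN area left out, the highest again without TN1 and 29 without TN2. A fit without 1 TN area has 1 residual degree of freedom. For the region against other spots, Pde6b ranged from 1.98 to 2.46 (log2) with each area left out, and was 1.99 with the region set by marker level.

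Shares of spots with a UMI depend on depth by construction. Without thinning they were 7.20% for Tulp1, 2.83% for Cplx3, 3.97% for Gngt1, 4.67% for Cacna1f and 1.14% for Pde6b in HC, and 5.42%, 14.0% and 6.52% for Pde6b in TN1, TN2 and TN3. Thinned to 2000 UMIs they were 1.28%, 0.562%, 0.626% and 0.768% for the first 4 in HC, and 0.496%, 0.904% and 0.773% for Pde6b in TN1, TN2 and TN3. No paired analysis was possible because HC holds 2 animals on 1 area and its spots carry no animal label. Depth limits the 4 members in TN, where 2 to 15 UMIs over all areas leave ratios wide, and 1 control area leaves its animal, section and condition inseparable.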

Other observations

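Macrophage and connective tissue genes ran in the direction of Pde6b at the level of the area. The summed macrophage list was at 804, 1489 and 1846 CPM in TN1, TN2 and TN3 and 368 in HC, and 7 of its 7 genes lay below every TN area in HC. The connective tissue list was at 1974, 5777 and 5583 CPM in TN and 1450 in HC. Abca4, a transporter of photoreceptor discs, had 5, 31, 47 and 6 UMIs, and Gucy2e, a guanylate cyclase that supplies cyclic GMP, had 3, 27, 29 and 4, so in both TN2 and TN3 stood high while TN1 lay near HC. Neither shared the even TN level of Pde6b.

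Recoverin (Rcvrn), a calcium sensor of photoreceptors, had 2, 9 and 9 UMIs in TN and 0 in HC, opposite to the 4 genes counted mainly in HC. Opn1sw, the short-wave cone opsin, had 5 UMIs in TN1, 0 in TN2 and TN3 and 3 in HC.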
